A study of Mus musculus with 9 samples.

Results

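Astrocytes take glutamate and GABA out of the extracellular space, carry potassium, bicarbonate and water between synapses and vessels, and share ions and metabolites through gap junctions. A small set of membrane proteins does most of this work, and it is used to judge whether astrocytes next to a lesion keep their housekeeping duties. Of this set 9 genes, called members here, were followed in the mouse cells around human glioblastoma: the glutamate transporters *Slc1a2* and *Slc1a3*, glutamine synthetase (*Glul*), the GABA transporter *Slc6a11*, the inwardly rectifying potassium channel *Kcnj10*, the sodium bicarbonate cotransporter *Slc4a4*, the water channel *Aqp4*, and the gap junction proteins *Gja1* and *Gjb6*. They were picked by symbol from 33274 symbols that occur in at least 1 file. The symbols of 8 members are listed in all 9 files, and *Gjb6* is missing from the file of P3, where it is treated as missing and not as 0.

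The data are Drop-seq counts of unique molecular identifiers (UMIs) in mouse cells of 9 samples from Nude mice. The 7 patient-derived orthotopic xenografts (PDOXs) labelled untreated are P3, P8, P13, T16, T101, T192 and T233, in which glioblastoma organoids grew in the right frontal cortex of female athymic mice. P3TMZ is a P3 PDOX after temozolomide (TMZ), and Nu-NB is the brain of a nude mouse without tumor, the only control. A single patient gave both T192 and T233, the ages of the mice and the brain region of Nu-NB are not given in the sources used here, and athymic mice lack a normal T cell compartment. FACS was used for Nu-NB and P8 and a magnetic (MACS) depletion kit for the rest. The samples sorted by FACS also list 15 astrocyte and 11 ciliated ependymal marker symbols, where the others list 16 and 12. Sort and listed symbols thus cannot be told apart, and only P8 can be set against Nu-NB within the same sort.

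Nu-NB had 1519323 UMIs in total and the PDOXs had 1294068 to 8410580, and cells that passed the filters had medians between 521 and 1303 UMIs. In all, 14622 cells were kept and clustered without the members and without 44 other genes of the same pathways, so these genes did not set the cell classes. Only 60 of 33913 barcode sequences occurred in more than 1 library. Class names rest on marker genes and end in "-like". Levels are UMIs of a gene per 1000000 UMIs of all cells of a class in a sample (CPM), and intervals are 95% exact Poisson or binomial intervals that cover counting error only.

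The astrocyte-like class held 2892 cells, of which 853 were in Nu-NB, 678 in P8, 45 in T101, 116 in T192, 62 in T233, 388 in T16 and 734 in P13. P3 had 3 and P3TMZ 13 of them, so P3 entered no comparison of astrocyte-like cells. The astrocyte markers, none of them a member, summed to 22215 CPM for Nu-NB and to between 20216 and 26544 CPM for the 6 PDOXs. Nu-NB and P8 list 15 of the markers and the other samples 16, and 1 was at 0 in T101 and 0 were at 0 in the rest of these 7 samples. The 12 markers of myeloid cells summed to 580 CPM in the astrocyte-like cells of Nu-NB and to 738 in P8, 792 in T16, 1115 in P13, 1210 in T101, 2485 in T233 and 3931 in T192, with 3 of the 12 at 0 in T101 and 0 at 0 elsewhere. The 9 choroid plexus markers summed to 182 CPM in Nu-NB, with 3 at 0, and to 104 in T101 (8 at 0), 270 in T192 (7), 283 in P8 (3), 814 in T233 (7), 1209 in T16 (2) and 1277 in P13 (0). The 10 endothelial markers summed to 29.6 CPM in Nu-NB (4 at 0), 43.3 in P8 (2 at 0), 260 in P13 (0), 207 in T101 (4), 147 in T16 (1), 132 in T233 (7) and 89.9 in T192 (4). The part of these markers in the levels of the members was not tested.

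In Nu-NB the 9 members together took 3.01% of all UMIs of the astrocyte-like cells. The share was 3.03% in P8, 2.29% in T101, 2.18% in T192, 1.95% in T233, 1.80% in T16 and 2.21% in P13. P8 lay next to Nu-NB, and the 5 MACS samples lay below both.

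The glutamate transporters were lower in every PDOX with enough cells. *Slc1a2*, the main astrocytic transporter that clears glutamate from synapses (chr2:102658659-102790784 in GRCm38, plus strand), was at 11996 CPM in Nu-NB, 9696 in P8, 6912 in T101, 9058 in T192, 6334 in T233, 5435 in T16 and 7988 in P13. No PDOX reached Nu-NB, and the PDOX mean was 7570 CPM ± 1639 (SD, n = 6). The fitted log2 fold change (log2FC, PDOX against Nu-NB) was -0.77 with a standard error (SE) of 0.46 (FDR = 0.52 by edgeR).

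*Slc1a3* (chr15:8634124-8710764, minus strand), the glutamate transporter that radial glia and Bergmann glia also use, was at 6167 CPM in Nu-NB, 5835 in P8, 5115 in T101, 3439 in T192, 4442 in T233, 3896 in T16 and 4620 in P13. All 6 PDOXs were below Nu-NB, but the counting intervals of P8 (5644 to 6032) and of T101 (4324 to 6008) overlapped that of Nu-NB (5972 to 6368). The log2FC was -0.54 (SE 0.46, FDR = 0.68 by edgeR).

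**Figure D1:**
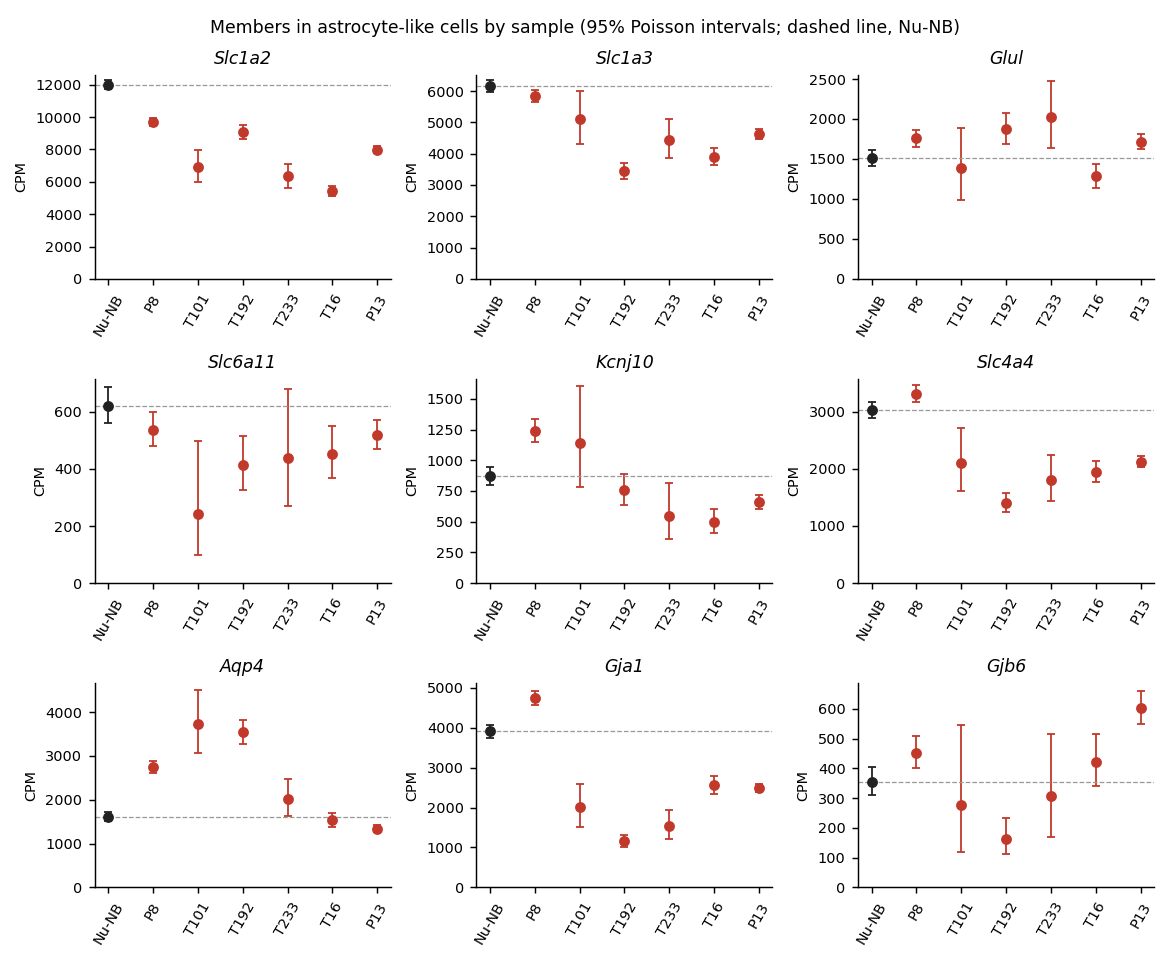
Level of each member (CPM, linear axis from 0) in the astrocyte-like cells of Nu-NB (black) and 6 PDOXs (red), with 95% Poisson intervals and a dashed line at the level of Nu-NB. *Slc1a2*, *Slc1a3* and *Slc6a11* lie below the line in 6 of 6 PDOXs, *Aqp4* lies above it in 4, and P8 is the only PDOX above it for *Slc4a4* and *Gja1*.

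*Glul* (chr1:153899944-153909723, plus strand) makes glutamine from glutamate and ammonia and so completes the uptake route. Its level was 1506 CPM in Nu-NB, 1757 in P8, 1382 in T101, 1873 in T192, 2023 in T233, 1282 in T16 and 1716 in P13. PDOXs lay on either side of Nu-NB, 4 above and 2 below, and the log2FC was 0.06 (SE 0.47, FDR = 0.98 by edgeR). It was 0.21 without T101, and its sign turned with cells thinned to 500 UMIs (-0.15), with at least 500 genes per cell (-0.14) and with cells taken by their own astrocyte markers in place of clusters (-0.66). Relative to *Slc1a2* of the same cells, *Glul* had 0.126 UMIs per *Slc1a2* UMI in Nu-NB (0.117 to 0.135) and between 0.181 in P8 and 0.319 in T233 in the PDOXs, where the interval of each of the 6 lay above that of Nu-NB.

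*Slc6a11* (chr6:114131241-114249952, plus strand), which removes GABA, was at 621 CPM in Nu-NB, 538 in P8, 242 in T101, 413 in T192, 440 in T233, 453 in T16 and 519 in P13. It was lower in 6 of 6 PDOXs, with a log2FC of -0.54 (SE 0.46, FDR = 0.68 by edgeR). When each PDOX was left out, this log2FC ran from -0.56 to -0.35. The value of T101 rests on 7 UMIs and that of T233 on 20, and the interval of T233 (269 to 679) contains the level of Nu-NB.

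The potassium channel and the bicarbonate transporter were both above or both below Nu-NB in 5 of 6 PDOXs, T101 being the exception. *Kcnj10* (chr1:172341210-172374085, plus strand), which sets the resting potential of astrocytes and takes up potassium, was at 871 CPM in Nu-NB, 1240 in P8, 1140 in T101, 757 in T192, 550 in T233, 499 in T16 and 660 in P13. P8 and T101 were above Nu-NB and the other 4 below it (log2FC -0.24, SE 0.48, FDR = 0.89 by edgeR). Leaving out each PDOX moved this from -0.34 (without P8) to -0.12 (without T233 or P13), and it was -0.43 with cells thinned to 500 UMIs and -0.94 with cells taken by their own markers. *Slc4a4* (chr5:88886818-89239653, plus strand), which moves sodium and bicarbonate and so buffers pH, was at 3033 CPM in Nu-NB and 3319 in P8, but at 2108 in T101, 1402 in T192, 1803 in T233, 1946 in T16 and 2125 in P13 (log2FC -0.61, SE 0.47, FDR = 0.64 by edgeR).

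*Aqp4*, the water channel of the endfeet on vessels, was the member with the highest fitted fold change. It was at 1610 CPM in Nu-NB, 2747 in P8, 3732 in T101, 3540 in T192, 2023 in T233, 1534 in T16 and 1338 in P13. The 3 highest PDOXs were well outside the counting interval of Nu-NB (1511 to 1714), whereas T233 (1631 to 2481) and T16 (1374 to 1707) overlapped it and P13 (1259 to 1421) lay below it. The spread between PDOXs (SD 1017 CPM) was larger than the difference of their mean, 2486 CPM, from Nu-NB, and the log2FC was 0.48 (SE 0.53, FDR = 0.76 by edgeR), which turned to -0.18 with cells taken by their own markers. In T101, the highest sample, the astrocyte-like cells also held 5 genes high in cluster 7 (*Cnot2*, *Cand1*, *Rab3ip*, *Frs2* and *Yeats4*), an unnamed cluster mostly of T101 with *Aqp4* of its own, at a sum of 587 CPM, against 115 in Nu-NB and 66.0 to 142 in the other 5 PDOXs, and the part of such cells in the *Aqp4* level was not tested. T192 and T233, from the same patient, differed in *Aqp4* (3276 to 3818 against 1631 to 2481).

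The gap junction genes both lay above Nu-NB in P8 and both below it in T101, T192 and T233, and were on opposite sides in T16 and P13. *Gja1* (chr10:56377330-56402513, plus strand), the main connexin of astrocytes, was at 3912 CPM in Nu-NB and 4752 in P8, and at 2004 in T101, 1159 in T192, 1539 in T233, 2559 in T16 and 2488 in P13. P8 was above Nu-NB and the 5 MACS samples were below it, with a log2FC of -0.77 (SE 0.55, FDR = 0.61 by edgeR). *Gjb6* (chr14:57123303-57133611, minus strand), the other astrocytic connexin, was at 355 CPM in Nu-NB, 452 in P8, 276 in T101, 164 in T192, 308 in T233, 421 in T16 and 603 in P13, 3 above and 3 below (log2FC 0.07, SE 0.55, FDR = 0.98 by edgeR, and -0.094 without P13).

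By edgeR, 0 of 9 members passed FDR ≤ 0.01 with |log2FC| ≥ 1 in astrocyte-like cells, where 0 of 5576 genes tested did (0.0%). An unadjusted p under 0.05 was reached by 0 members and by 663 genes (11.9%). By DESeq2 0 genes passed, and 428 genes (7.68%) and 0 of the members had such a p. Nu-NB is a lone sample, so the fit takes the spread of the PDOXs for it as well. The median log2FC of the members was -0.54, against -0.05 over all genes tested and 0.07 over the 15 astrocyte markers, and it was -1.36 with cells taken by their own markers. In that alternative 5 of 9 members had an unadjusted p under 0.05 by edgeR, as did 1470 of 9550 genes. These were *Slc1a2* (log2FC -1.52, unadjusted p = 0.0049), *Slc1a3* (-1.36, 0.0090), *Slc6a11* (-1.40, 0.0098), *Slc4a4* (-1.44, 0.012) and *Gja1* (-1.60, 0.022), with adjusted p (FDR) of 0.26 to 0.28 by edgeR. That choice of cells changed the sums unequally, from 608699 to 624538 UMIs for Nu-NB but from 599968 to 1047223 for P8, 189006 to 518552 for T192 and 787692 to 2003422 for P13, and the part of the added cells in these values was not tested. Of the members, 3 were lower than Nu-NB in 6 of 6 PDOXs, where 19.8% of all genes were, and 0 were higher in all 6, where 13.2% were.

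**Figure D2:**
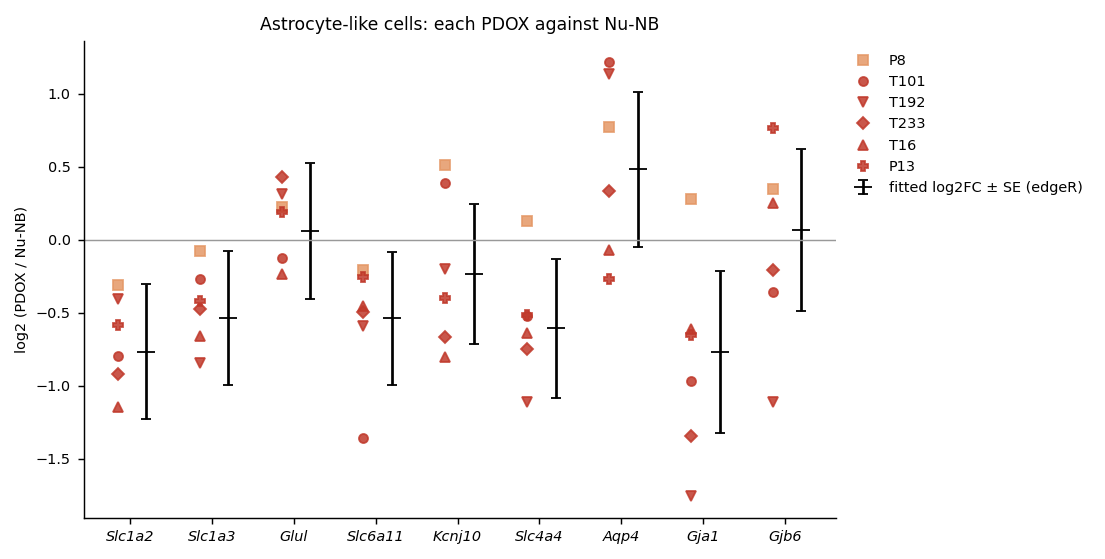
Log2 ratio of each PDOX to Nu-NB for the 9 members in astrocyte-like cells (points, P8 in orange) and the fitted log2FC with its SE (black bars). Points of *Slc1a2*, *Slc1a3* and *Slc6a11* all lie below 0, *Aqp4* runs from -0.27 in P13 to 1.21 in T101, and P8 lies highest for *Slc1a2*, *Slc1a3*, *Slc6a11*, *Kcnj10*, *Slc4a4* and *Gja1*.

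P8 stood apart from the other PDOXs. Its median log2 ratio to Nu-NB over the members was 0.22 and 3 of 9 members were below Nu-NB, while in the other 5 PDOXs the median ran from -0.61 in T16 to -0.36 in T101, with 7 or 8 of 9 members below. Without P8, *Gja1* had a log2FC of -0.98 (unadjusted p = 0.049, FDR = 0.29 by edgeR) and *Slc4a4* one of -0.70 (FDR = 0.46 by edgeR), and 0 members passed. The cell sort moves with this split, and its part was not tested.

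To compare shares of cells at equal depth, cells were thinned to 500 UMIs, which left 504 astrocyte-like cells in Nu-NB, 486 in P8, 14 in T101, 84 in T192, 31 in T233, 167 in T16 and 705 in P13. *Slc1a2* was seen in 96.0% of cells in Nu-NB and in 86.8% (T16) to 95.2% (T192) of cells in the PDOXs. *Gja1* was seen in 78.8% of cells in Nu-NB, 85.6% in P8, and in 66.5% in P13, 64.3% in T101, 61.7% in T16, 54.8% in T233 and 45.2% in T192. *Aqp4* was seen in 44.2% of cells in Nu-NB, close to P13 (43.0%), T233 (45.2%) and T16 (47.9%) and below P8 (67.1%), T101 (71.4%) and T192 (75%).

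At this depth a cell of Nu-NB held UMIs of 5.0 members on average (SD over cells 1.32), against 5.45 in P8, 4.68 in P13, 4.52 in T233, 4.50 in T101, 4.46 in T192 and 4.31 in T16. At least 5 members were seen in 66.9% of the astrocyte-like cells of Nu-NB and 77.8% of those of P8, and in 46.4% (T192) to 58.1% (T233) of those of the other PDOXs. At the same depth myeloid-like cells held 0.70 members for Nu-NB and between 0.17 and 1.21 for the PDOXs, *Glul* included.

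**Figure D3:**
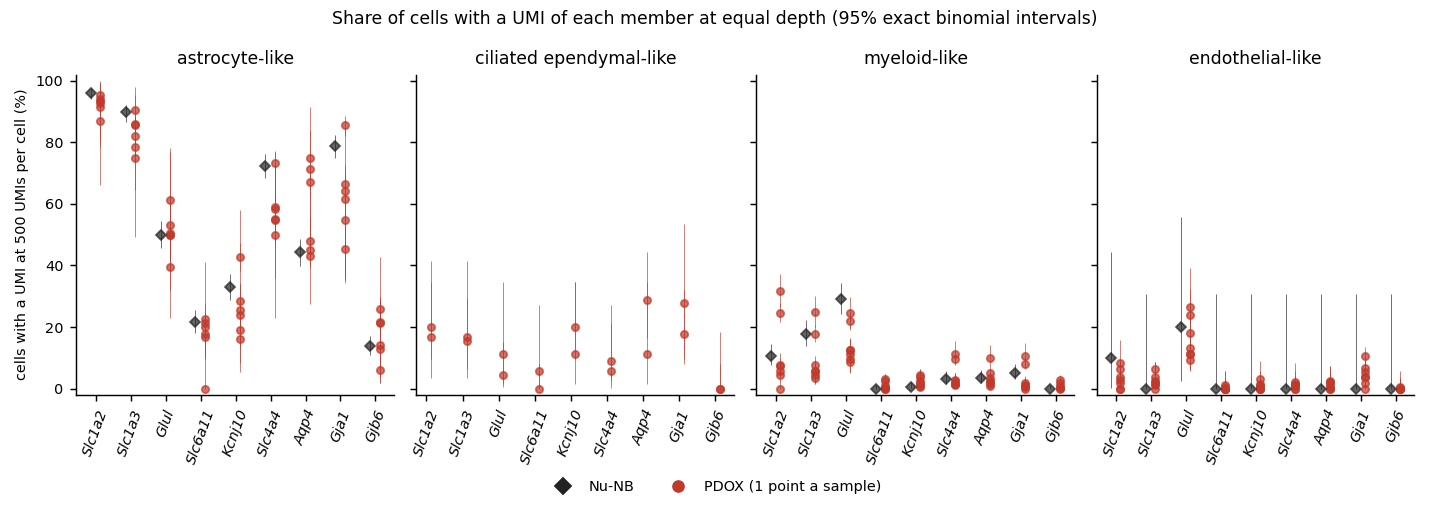
Percent of cells with at least 1 UMI of each member after thinning to 500 UMIs, in 4 cell classes, for Nu-NB (black) and each PDOX with at least 10 such cells (red), with 95% exact binomial intervals. Astrocyte-like cells reach 96.0% for *Slc1a2*, while in endothelial-like cells *Glul* is the only member seen in more than 15% of cells of any sample.

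The astrocyte-like cells fell into 4 clusters, numbered 4, 5, 6 and 9, each with 13 or 14 of the 15 markers raised. Their makeup differed between samples: cluster 9 held 389 of the 853 cells of Nu-NB, cluster 4 held 260 of the 388 of T16, and cluster 5 held 327 of the 734 of P13. Within clusters with at least 10 cells, *Slc1a2* was again below Nu-NB: in 6 of 6 PDOXs in cluster 4 (13548 CPM in Nu-NB, 5667 to 10000 in PDOXs) and in cluster 5 (13641 against 6102 to 11610), in 5 of 5 in cluster 6 (7796 against 3105 to 6276) and in 3 of 3 in cluster 9 (12791 against 7082 to 10216). *Slc1a3* was below Nu-NB in 6 of 6 in clusters 4 and 5 and in 3 of 3 in cluster 9, but in 3 of 5 in cluster 6 (4396 CPM against 1852 to 4935).

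For *Slc4a4*, 6 of 6 PDOXs lay below Nu-NB within cluster 4 (3372 CPM against 1102 to 3191) and within cluster 5 (2838 against 1251 to 2562), P8 included, in 3 of 5 in cluster 6 and in 3 of 3 in cluster 9. *Gjb6* was higher than Nu-NB in 6 of 6 PDOXs in cluster 4 (241 CPM against 301 to 535) and in 4 of 6 in cluster 5 (255 against 108 to 611), and in 3 of 3 in cluster 9 (328 against 345 to 419), but in 1 of 5 in cluster 6 (574 against 444 to 747). *Slc6a11* was lower in 6 of 6 in clusters 4 and 5, in 3 of 5 in cluster 6 and in 2 of 3 in cluster 9.

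Cluster 6, led by *Itih3*, by angiotensinogen (*Agt*) and by the endothelin receptor *Ednrb*, carried the members in another balance. *Slc6a11* was at 1299 CPM in cluster 6 of Nu-NB, and over the 6 samples with at least 10 cells there its level was 3.0 to 17.2 times that of the other astrocyte-like cells of the same sample (median 4.0). *Kcnj10* was 1.82 to 2.71 times as high as in those cells, *Slc4a4* 1.63 to 3.06 times and *Gjb6* 1.23 to 3.49 times. *Slc1a2* was lower in cluster 6, at 0.408 to 0.592 times the level of the other cells, as was *Glul* at 0.312 to 0.774 times. *Gja1* and *Aqp4* lay on either side of equality. These ratios describe clusters made from other genes of the same cells and have no test.

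**Figure D4:**
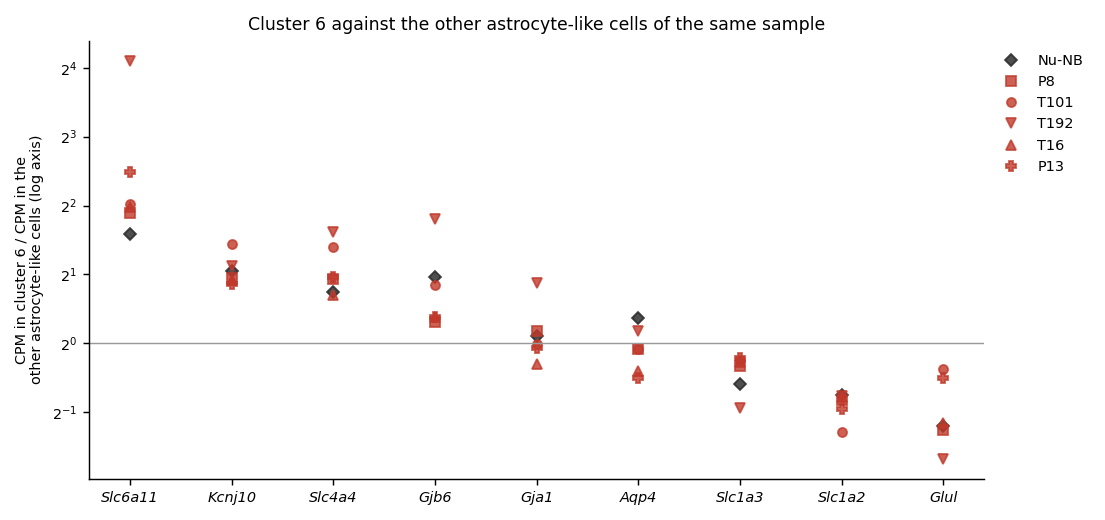
Ratio of the level (CPM) in cluster 6 to that in the other astrocyte-like cells of the same sample, on a log axis, for Nu-NB (black) and 5 PDOXs (red). *Slc6a11*, *Kcnj10*, *Slc4a4* and *Gjb6* lie above 1 in 6 of 6 samples, and *Slc1a3*, *Slc1a2* and *Glul* lie below 1 in 6 of 6.

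Across the named cell classes all members had their highest median level over PDOXs in astrocyte-like cells. For 8 of the 9 the lowest astrocyte-like PDOX was above the highest PDOX of the next named class. *Slc1a2* had a median of 7450 CPM there and 607 in the next class, choroid plexus-like cells, which did not differ beyond their spread from fibroblast-like (606) or OPC-like cells (591). The exception was *Gjb6*, with a median of 365 CPM (164 to 603) in astrocyte-like and 276 (46.6 to 281) in fibroblast-like cells, whose ranges overlapped. Mixed cells and cells without a class name were left out of this order. Of the latter, cluster 7 held *Aqp4* at 2096 CPM in T101, above the lowest astrocyte-like PDOX (1338). In cluster 27 of P8, *Gja1* (2425 CPM) and *Slc4a4* (2391) also exceeded their lowest astrocyte-like PDOX (1159 and 1402).

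**Figure D5:**
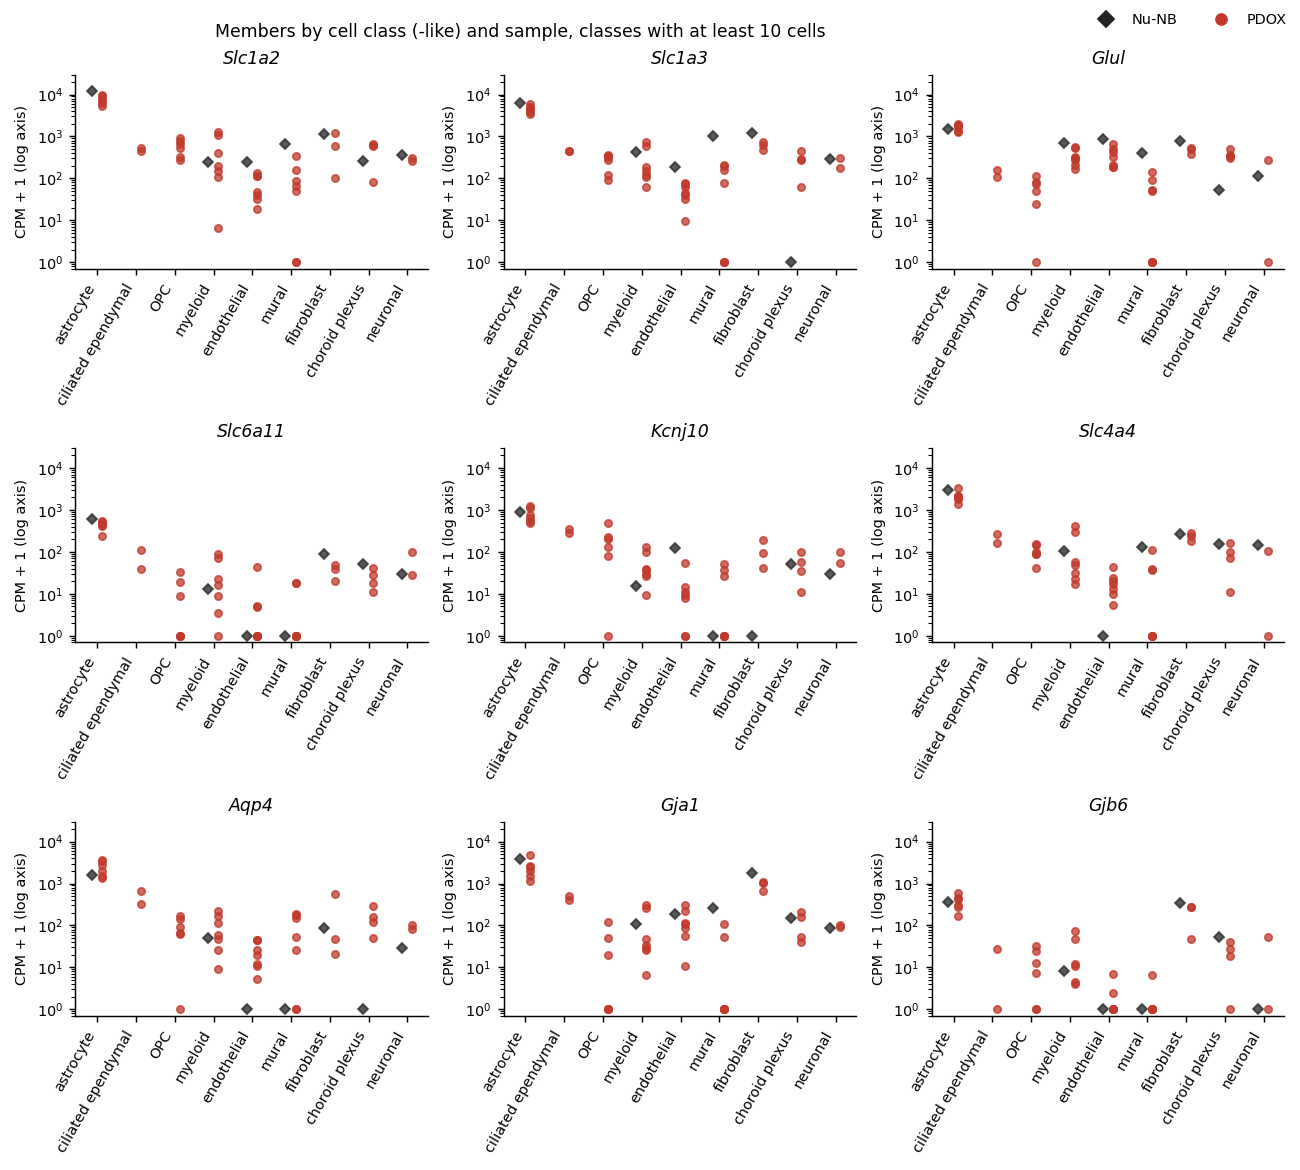
Level of each member (CPM + 1, log axis) in 9 cell classes, for Nu-NB (black diamonds) and each PDOX (red points) with at least 10 cells of the class. Among these 9 classes astrocyte-like cells are highest by median over PDOXs for each member. By that median fibroblast-like cells come next for *Gja1* and *Gjb6*, ciliated ependymal-like cells for *Kcnj10* and *Aqp4*. Mixed cells and cells without a class name are not drawn.

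Barcodes with fewer than 200 genes were taken as background. Whether they hold free RNA or shallow cells was not tested. In these barcodes *Slc1a2* was at 5252 CPM in Nu-NB, 2489 in P8, 2459 in T16, 1340 in T101, 1055 in T233, 1222 in T192 and 67 in P3, whereas P13 had only 3 such barcodes. The levels of astrocyte-like cells exceeded those of these barcodes, with counting intervals apart, in 6 of 6 samples for 7 members and in 5 of 6 for *Gjb6* and *Slc6a11*. Levels of members in other classes are not read as expression unless the ratio to *Slc1a2* exceeds that of these barcodes in the same sample.

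Ciliated ependymal-like cells, which line the ventricles, were few (91 cells, 18 in T16 and 45 in P13, under 10 in every other sample). *Aqp4*, which ependymal cells carry on their basolateral side, was at 329 CPM in T16 and 665 in P13, and over the 83 cells of the 7 PDOXs at 635 CPM (497 to 800). In T16 its ratio to *Slc1a2*, 0.75 (0.214 to 2.46), was not above that of the background barcodes, 0.291 (0.239 to 0.353), but it rests on 6 *Aqp4* and 8 *Slc1a2* UMIs, and P13 has too few such barcodes to be set against. In P13 the ratio was 1.24 (0.808 to 1.92) in ependymal-like cells and 0.168 (0.157 to 0.179) in astrocyte-like cells, with intervals apart. *Kcnj10* was at 274 and 352 CPM, and over the 7 PDOXs at 362 (260 to 491), and its ratio in T16, 0.625 (0.161 to 2.17), was above that of the background barcodes, 0.113 (0.0831 to 0.150). *Gjb6* had 2 UMIs in the 79 cells of the 6 PDOXs that list it (18.3 CPM, 2.21 to 66.0), and *Slc6a11* had 5 (44.1 CPM, 14.3 to 103). Relative to *Slc1a2*, *Kcnj10* had 0.659 UMIs per UMI in ependymal-like cells of P13 (0.390 to 1.10) and 0.0826 in astrocyte-like cells of P13 (0.0754 to 0.0904). Nu-NB had 7 such cells, so no change with the tumor could be looked at.

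*Glul* met that condition in myeloid-like cells. It had 2.91 UMIs per *Slc1a2* UMI in myeloid-like cells of Nu-NB (2.32 to 3.68) and 0.174 in barcodes under 200 genes (0.148 to 0.203), and the ratio was above that of those barcodes in 7 of 7 samples that have them. Its level itself was above theirs in 0 of 7 samples and below in 1. The level in myeloid-like cells was 710 CPM in Nu-NB and 276 in P8, 205 in T101, 317 in T192, 303 in T233, 170 in P3, 562 in T16 and 525 in P13. All 7 PDOXs were below Nu-NB, as were 32.3% of the 10253 genes tested, and the log2FC was -0.83 (SE 0.50, FDR = 0.41 by edgeR). At 500 UMIs *Glul* was seen in 29.2% of the myeloid-like cells of Nu-NB and in 8.66% (T101) to 24.4% (T16) of those of the PDOXs.

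*Slc1a3* in myeloid-like cells had a ratio to *Slc1a2* above that of the background barcodes in 3 of 7 samples, and its level was 435 CPM in Nu-NB, 733 in T16, 593 in P13 and 60.2 to 187 in the other 5 PDOXs. The levels of *Slc1a2* were high in T16 (1289 CPM) and P13 (1074), against 244 in Nu-NB and 5.48 to 395 elsewhere. In both samples a myeloid-like cluster of deep cells, number 18, carried them: *Slc1a2* was at 1887 CPM in its 117 cells of T16 and at 2582 in its 155 of P13, and 5 astrocyte markers were also raised in the cluster. The part of mixed droplets in this was not tested, and the median depth of that cluster was 2463 UMIs.

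In myeloid-like cells 8 members could be tested and 0 passed by edgeR, where 0 of 10253 genes did (0.0%), and 0 by DESeq2, where 162 genes did (1.58%). At an unadjusted p under 0.05 there were 1761 genes by edgeR (17.2%) and 0 members, and 16.2% of genes and 0 members by DESeq2. The median log2FC of the 8 was 0.80, against 0.10 over all genes and 1.59 over the 15 astrocyte markers tested there.

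Endothelial-like cells also held *Glul* above the background ratio, in 6 of 7 samples, although the level itself was above theirs in 1 of 7. It was 852 CPM in Nu-NB, from 14 UMIs in 34 cells, and 497 in P8, 327 in T101, 431 in T192, 674 in T233, 204 in P3, 186 in T16 and 189 in P13. *Gja1*, which endothelium uses to couple its cells, was above the background ratio in 5 of 7 samples and above the background level in 0 of 7, at 183 CPM (3 UMIs) in Nu-NB and from 9.77 in T233 to 300 in P13 over the PDOXs. Of 5 members tested, 0 passed by edgeR, where 0 of 6217 genes did (0.0%), or by DESeq2, where 2 genes did (0.0322%). At an unadjusted p under 0.05 there were 13.7% of genes by edgeR and 6.4% by DESeq2, with 0 and 0 members. Levels of 4 of the 5 were below Nu-NB in 7 of 7 PDOXs, where those of 39.2% of genes were. In Nu-NB these rest on 4 (*Slc1a2*), 3 (*Slc1a3*), 14 (*Glul*) and 2 (*Kcnj10*) UMIs. *Slc1a3* and *Kcnj10* were above the background ratio in 0 of 7 samples, and *Slc1a2* was below the background level in 6 of 7. Of the 4, only *Glul* is thus read as expression. The median log2FC over all genes was 0.72 in this class under the scaling used and -0.07 under library size alone, so the log2FC of *Glul*, -0.32 (SE 0.74), is not read as a direction.

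Connexin UMIs were also counted in fibroblast-like cells. *Gja1* was at 1737 CPM in Nu-NB (18 cells), 1104 in P8 (51), 652 in T16 (17) and 1013 in P13 (38), with a ratio to *Slc1a2* above that of the background barcodes in 3 of 3 samples that have them and a level above theirs in 0 of 3. *Gjb6* was at 347 CPM in Nu-NB, 276 in P8, 46.6 in T16 and 281 in P13, above the background ratio in 2 of 3 samples and above the background level in 1 of 3. OPC-like cells, the precursors of oligodendrocytes, carried *Kcnj10* above the background ratio in 3 of 5 samples and above the background level in 1 of 5, at 230 CPM in P8, 483 in T101, 133 in T192, 203 in T16, 80.04 in P13 and 0 UMIs in T233.

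Members were also found in clusters without a class name, of which 3 are described. Cluster 7, 656 of whose 724 cells were from T101, was led by *Cnot2*, *Rab3ip*, *Cand1*, *Postn* and *Egfr* and held *Aqp4* at 2096 CPM in T101, with *Slc1a2* at 97.8 and *Kcnj10* at 16.3. Its 18 cells of T233 had *Aqp4* at 3196 CPM and its 28 of P3 had 0 UMIs. In cluster 2, led by *Gm2178*, *Gm17511* and *Gap43*, *Aqp4* was at 1107 CPM in T101, 1037 in T192, 1793 in T233, 1142 in T16 and 280 in P13, and had 0 UMIs in P3. Neither cluster had 10 cells in Nu-NB or P8. Whether clusters 2 and 7 hold human tumor cells whose reads were mapped to the mouse genome was not tested. Cluster 27, with 91 cells in Nu-NB and 68 in P8, held *Slc4a4* at 3134 CPM in Nu-NB and 2391 in P8 and *Gja1* at 2195 and 2425.

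Of 44 other genes of the same pathways, 31 could be tested in astrocyte-like cells and 0 passed in either direction (6 of 31 at an unadjusted p under 0.05 by edgeR, 11.9% of all genes tested). Their median log2FC was -0.38. Among 17 genes of glutamate, GABA and glutamine handling 13 were tested, with 4 lower (30.8%) and 2 higher (15.4%) than Nu-NB in 6 of 6 PDOXs, as were 19.8% and 13.2% of all genes. The glutamine exporter *Slc38a3* was at 938 CPM in Nu-NB, while PDOXs ran from 151 to 542 (log2FC -1.76, SE 0.47, FDR = 0.28 by edgeR). The serine transporter *Slc7a10* (555 against 176 to 417 CPM) and the glutamate receptor *Grm3* (281 against 79.4 to 212) were also lower in 6 of 6, and the mitochondrial glutamate carrier *Slc25a18* was higher in 6 of 6 (67.4 against a median of 186).

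Among 8 genes of potassium, sodium and chloride handling, *Fxyd1*, a regulator of the sodium pump, was higher in 6 of 6 PDOXs, at 266 CPM in Nu-NB and 595 to 1344 in PDOXs (log2FC 1.67, SE 0.57, FDR = 0.31 by edgeR). Of 10 genes for water, volume and endfoot anchoring 6 were tested. Members of the dystrophin complex that anchors *Aqp4* at endfeet, dystrobrevin (*Dtna*, 882 against 34.6 to 522 CPM, log2FC -1.46) and dystrophin (*Dmd*, 583 against 66.0 to 497, log2FC -0.99), were lower in 6 of 6. Dystroglycan (*Dag1*) of the same complex, added after its values were seen, was at 115 CPM in Nu-NB and above it in 5 of 6 PDOXs (93.3 to 229, log2FC 0.60). Outside that complex, *Mlc1*, a membrane protein of endfeet tied to cell volume, was higher in 6 of 6 (271 against 371 to 847, log2FC 0.77). None of these passed the threshold.

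The genes whose levels followed a member most closely over 61 sums of a class in a sample (57 for *Gjb6*; Pearson r of log2(CPM + 10), members left out) are given as a description, since these sums share libraries. *Slc1a2* was nearest to *Ttyh1* (r = 0.93), *Ntsr2* (0.91) and *Scg3* (0.87), *Slc4a4* to *Cldn10* (0.87), *Slc1a3* to *Ttyh1* (0.83), *Gja1* to *Myo6* (0.81) and *Glul* to *S1pr1* (0.80). *Kcnj10* was nearest to *Slc25a18* (0.84), *Slc6a11* to *Agt* (0.85), *Gjb6* to *Hsd11b1* (0.86) and *Aqp4* to *Gabrb1* (0.80).

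P3 and P3TMZ are 1 sample each, so no test was made, and astrocyte-like cells were too few. *Glul* was at 170 CPM in the myeloid-like cells of P3 and 299 in those of P3TMZ, a ratio of 1.76 (1.33 to 2.37), and at 204 and 463 CPM in endothelial-like cells, a ratio of 2.27 (1.53 to 3.39). In barcodes under 200 genes the ratio was 1.31 (0.907 to 1.90). *Slc1a2* in myeloid-like cells was at 5.48 and 38.9 CPM, a ratio of 7.10 (1.81 to 61.3) that rests on 2 UMIs in P3, while in the barcodes under 200 genes the ratio was 3.87 (2.33 to 6.69). *Gja1* in endothelial-like cells was at 108 and 51.4 CPM (0.475, 0.173 to 1.13). Over all cells the ratio was below 1 for *Gja1* (0.543, 0.326 to 0.894) and *Slc4a4* (0.60, 0.369 to 0.969) and above 1 for *Slc1a2* (1.88, 1.23 to 2.92), *Slc1a3* (1.49, 1.11 to 2.02) and *Glul* (1.72, 1.42 to 2.09). The intervals of *Kcnj10* and *Aqp4* contained 1. Ratios over all cells also depend on the cell makeup, which differed between the samples. Astrocyte-like cells were 3 of 777 in P3 and 13 of 722 in P3TMZ, endothelial-like cells 209 and 124, and myeloid-like cells 286 and 345. The part of the makeup in these ratios was not tested. In the cells without a class name, 205 in P3 and 173 in P3TMZ, *Slc1a2* went the other way, at 127 and 38.3 CPM (0.302, 0.111 to 0.760), and the ratio of *Slc4a4* was 0.438 (0.218 to 0.864). *Slc1a3* in myeloid-like cells was at 60.2 CPM in both.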

How the data were processed

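Per the labels and the study's methods, Drop-seq reads (bcl2fastq 2.0, STAR) were mapped to human and mouse (GRCm38/mm10) genomes, and the authors deposited raw UMI counts per gene symbol and barcode of the mouse-derived cells, without normalization. The annotation release is not given in the sources used here. The study gives 1 mouse each for P3 and P3TMZ. For the other samples the number of animals is not given in the sources used here, so p-values measure only the spread between these samples, which may be technical.

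Cells with at least 200 genes and at most 30% mitochondrial UMIs and genes in at least 5 cells were kept, and doublets were treated by dropping, per sample, the top 5% of scrublet scores. Clustering used scanpy 1.11.5 and leidenalg 0.10.2 (1970 variable genes, 30 components, 20 neighbors, resolution 2, seed 1) on 12580 symbols listed in every file, without members, pathway genes or batch correction. Clusters were named from marker lists. The members, lists and tests were chosen with earlier results of these data known, and the naming rule was revised with the clusters in view. For each class, UMIs of samples with 10 or more of its cells were added up. PDOXs and Nu-NB were compared in R 4.3.3 with the quasi-likelihood test of edgeR 4.0.16 (TMM scaling, filterByExpr, Benjamini-Hochberg adjustment across genes listed in every file of the fit), calling genes at FDR ≤ 0.01 with |log2FC| ≥ 1. DESeq2 1.42.0, other filters, scalings, cell sets and leaving out each PDOX were alternatives. The SE is the log2FC over the root of the F statistic. Both tools were also run on simulated data, whose recovery is not reported here, so counts of 0 genes are not read as absence of change. Cells were thinned to 500 UMIs for shares of cells. Pathway genes named are up to 8 with the largest change at 50 CPM or more whose PDOX values all lie on the same side of Nu-NB, and up to 3 nearest genes per member. Positions are those of GENCODE genes. P3TMZ entered no fit. T347, T470, GL261 and BL6/N samples were not analysed here.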

Additional observations from a re-analysis of the deposited data

Results flagged for a closer look

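*Slc6a11* was seen in 0.0% of the astrocyte-like cells of T101 at 500 UMIs per cell, far from the other 5 PDOXs (16.8 to 22.6%). T101 kept 14 cells at this depth, and a count of 0 among them allows a share of up to 21.4% by the floor of 3 cells and 23.2% by the exact 95% binomial interval, which contains the shares of the other 5. All 45 astrocyte-like cells of T101 together held 7 *Slc6a11* UMIs. Such a gap is seen in about 5% of groups by chance, and 39 groups of values were screened for it.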

How the results depend on the processing

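In astrocyte-like cells, 0 genes passed by edgeR, 0 by DESeq2, 31 when genes of low counts stayed in, 2 after thinning to 500 UMIs, and 0 to 19 when each PDOX was left out (19 without P8, 8 without T192). In myeloid-like cells it was 162 by DESeq2, 1 with no doublets left out, 0 with cluster 18 left out (chosen after seeing the data), and 0 to 28 when each PDOX was left out (28 without P8, 1 without T233). In endothelial-like cells it was 2 by DESeq2 and 0 to 0 without each PDOX. No member passed under any of these. The median log2FC of the members ran from -0.52 to -0.35 without each PDOX and from -0.68 to -0.42 under the other alternatives but 1: it was -1.36 when cells were taken by their own markers. That choice took 3338 cells, 2728 of them in the astrocyte-like clusters, and raised the UMIs of every PDOX more than those of Nu-NB (608699 to 624538), for instance T101 from 28937 to 57985 and P13 from 787692 to 2003422. *Glul* turned to -0.15 after thinning, -0.14 with at least 500 genes per cell and -0.66 by own markers, *Aqp4* to -0.18 by own markers, and *Gjb6* to -0.094 without P13 (range -0.094 to 0.34 without each PDOX), -0.18 with at least 500 genes and -0.84 by own markers; the other 128 values of single members kept their direction. The PDOX mean share of cells minus that of Nu-NB was -12.2 percentage points for *Slc1a2* at 300 UMIs, and it turned to -0.51 for *Glul* at 300 UMIs, and to 2.12 at 1000 UMIs and 0.19 without thinning for *Kcnj10*. The causes were not tested. No paired analysis was possible because Nu-NB is 1 sample, so the groups share fewer than 2 replicate numbers. Depth limits *Slc6a11*, *Gjb6* and *Kcnj10* in T101 and T233, and all members in ependymal-like cells.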
